A study of Rattus norvegicus with 75 samples.

Results

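The genes described here are 32 DNA damage checkpoint and repair genes, found by symbol in a deposited table of 32754 genes, in which each of the 32 matched 1 row. The RNA came from microdissected kidney tubules of male Sprague-Dawley rats, 120 to 160 g in weight, for which the labels name no genetic change and no age. Collecting ducts of the cortex (CCD) set the final water, salt and acid content of urine, and thick ascending limbs of the cortex (cTAL) reabsorb salt but let no water follow. Rats ate food without lithium (control) or food holding 40 mM LiCl (lithium chloride) per kg, and the stated question was which signalling starts lithium-induced nephrogenic diabetes insipidus, a failure of the duct to concentrate urine. CCD had been sampled after 12 h (3 control and 2 lithium libraries), 24 h (3 of each), 36 h (3 of each) and 72 h (17 control and 19 lithium libraries). cTAL libraries, all at 72 h, numbered 12 control and 10 lithium. Whether libraries of a group stem from separate rats is not stated in the labels, so every p-value measures the spread between libraries, and that spread may be partly technical.

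Cells copy their DNA once per division, and copying leaves mispaired bases and stalls or breaks forks where the template is damaged or crosslinked. Homologous recombination mends breaks with the sister copy as a template, and the Fanconi anaemia pathway removes crosslinks that block forks, so both work mainly in cells that are copying or have just copied DNA. A stalled fork is sensed by ATR, which through its partners activates the kinase CHEK1 and holds the cell cycle. End joining by the Ku proteins and DNA-PK, nick sealing by PARP1 and XRCC1, and damage sensing by ATM and its adaptors work at any time, in resting cells too. The 32 genes were therefore put in 3 classes. Replication-linked repair held 16 genes, fork checkpoint held 7, and constitutive end joining, nick repair and damage sensing held 9.

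Values are TPM, a level scaled by transcript length and by library total, with no read depth behind it in the table. Differences were taken between means of log2(TPM + 1), a scale that shrinks the change of genes at low level. A gene was called where limma gave an adjusted p under 0.05 after Benjamini-Hochberg correction over all genes tested in that comparison. The segments carried their labelled markers. The summed level of 6 principal cell markers, Aqp2 among the highest, had a median of 10111 TPM in control CCD at 72 h against 81 TPM in control cTAL. The sum of 5 thick ascending limb markers had medians of 976 and 73833 TPM in the same groups. Umod was the highest of the 5 in control cTAL, but in control CCD it was Kcnj1, with a mean of 918 TPM. The principal cell sum had medians of 14100 TPM in control and 6145 TPM in lithium CCD at 36 h, without overlap, and of 10111 and 7311 TPM at 72 h. The sum of intercalated cell markers had medians of 7186 and 5072 TPM at 72 h, also without overlap. Their part in the differences of the 32 genes was not tested. Immune markers, led by Cd74, summed to a median of 198 TPM in control and 273 TPM in lithium CCD at 72 h, and to 3062 and 3278 TPM in cTAL. The states of 5 genes that are not repair genes put the 72 h libraries of each group in 4 sets of consecutive numbers, and each earlier group in 1 set. The pattern of the control set differed from that of the lithium set at 12, 24 and 36 h. Lithium and set therefore cannot be told apart at those times. The set patterns of control CCD match those of control cTAL 1 to 1, and likewise for lithium, and what the sets stand for is not given in the sources used here. The last set of lithium CCD (libraries 16 to 19), of control cTAL (9 to 12) and of lithium cTAL (8 to 10) also stood apart by 17 to 45 detected short RNA genes, against 0 to 6 in the other 72 h libraries. Lithium library 1 at 12 h had 12. In bulk tissue, fewer cells that express a gene and less RNA per cell cannot be told apart.

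In unexposed ducts the classes stood at different levels. In control CCD at 72 h the median of the mean levels was 18.2 TPM over the 9 constitutive genes, 4.77 TPM over the 7 fork checkpoint genes and 2.21 TPM over the 16 replication-linked genes. The most abundant of the 32 was Xrcc1, the scaffold that gathers the enzymes of nick repair, at 107 ± 14.9 TPM (SD, n = 17). The lowest was Rad54b, a motor protein of recombination, at 0.18 ± 0.20 TPM (SD, n = 17). Chek1 and Ung stood well above the rest of their classes. Chek1 had 85.4 ± 40.4 TPM (SD, n = 17), and Ung, which removes uracil from DNA, had 46.1 ± 8.34 TPM (SD, n = 17), so the order by level followed the classes only in part. Which transcripts the listed level of Chek1 rests on was not tested. Prkdc, the kinase of end joining, was the lowest constitutive gene at 2.47 ± 0.85 TPM (SD, n = 17), within the range of the replication-linked genes.

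Most of the 32 genes were called higher with lithium in CCD at some time, and limma called no member lower at any time. At 72 h 19 of 29 tested genes were called higher, where 22% of all 11644 genes tested were. After 12 h the count was 13 of 29, with 7.96% of all genes called higher. After 24 h it was 27 of 32, with 19.9% of all genes, and after 36 h again 27 of 32, with 25.5% of all genes. Calls toward lower levels took 3.78%, 5.77%, 9.28% and 15.2% of all genes tested at 12, 24, 36 and 72 h, which makes 11.7%, 25.7%, 34.8% and 37.3% in either direction. The 3 classes took unequal parts in these counts. From 12 to 72 h, 9 of 14, 15 of 16, 16 of 16 and 12 of 14 replication-linked genes were called higher. Of the fork checkpoint genes 2 of 6, 6 of 7, 7 of 7 and 4 of 6 were, and of the constitutive genes 2 of 9, 6 of 9, 4 of 9 and 3 of 9. The difference between classes was not itself tested. A gene entered a test with at least 1 TPM in as many libraries as the smallest group. Clspn at 24 and 36 h and Neil3 at 36 h passed that filter through lithium libraries alone, and both are in these counts. Rad54b entered at 24 and 36 h with every lithium library above every control library. Its lithium libraries thus sufficed for the filter, and it is counted as well.

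**Figure D1:**
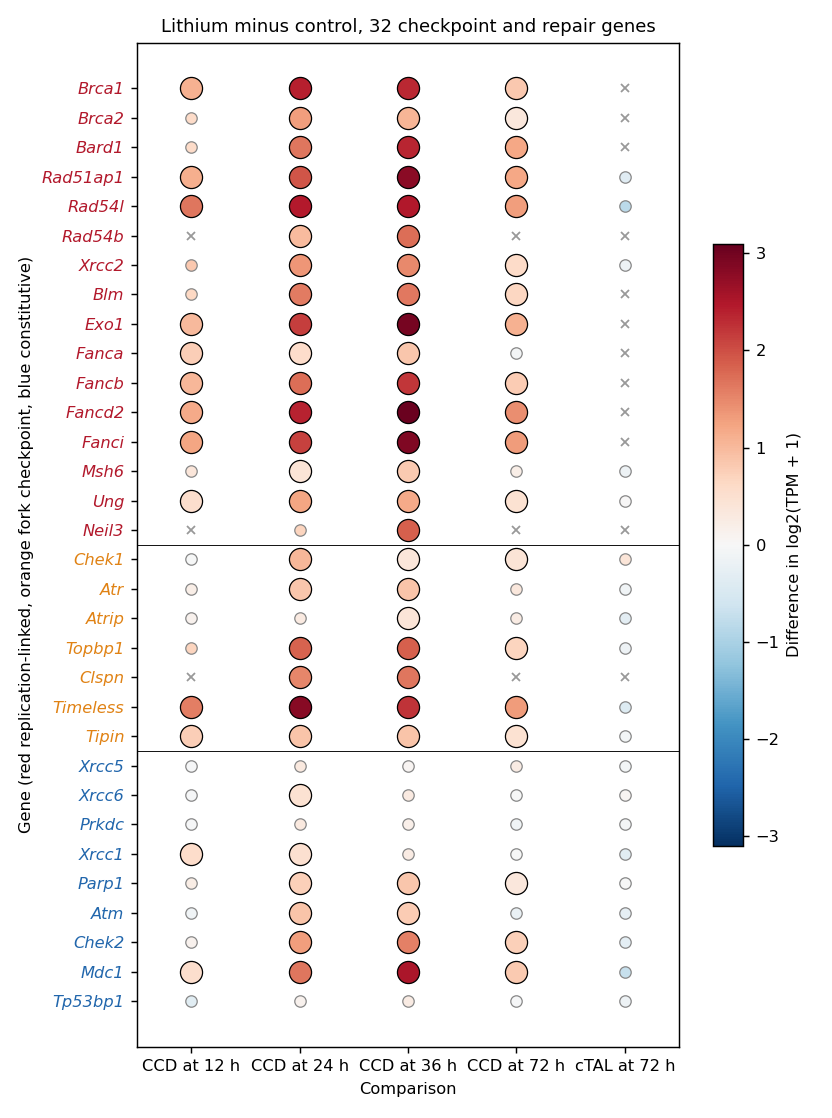
Lithium minus control in log2(TPM + 1) for each of the 32 genes (rows, coloured by class) in 4 CCD comparisons and 1 cTAL comparison (columns). Large circles with a black edge were called, small circles were not, and a cross marks a gene not tested. Most replication-linked rows are red and called at 24 and 36 h in CCD, while Xrcc5, Prkdc and Tp53bp1 are uncalled throughout.

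The size of the differences varied by class too. The median log2 difference of the replication-linked genes was 0.92, 1.64, 2.03 and 0.80 in order of time. That of the constitutive genes was -0.03, 0.49, 0.27 and -0.01, and that of the fork checkpoint genes 0.46, 1.03, 0.89 and 0.45. Over all genes tested it was 0.06, 0.13, 0.13 and 0.00. The constitutive class was not uniform. Its mean difference was 0.10 at 12 h and 0.19 at 72 h, of opposite sign to its median. At 72 h Mdc1, Chek2 and Parp1 were called and the other 6 were not. Calls over all genes leaned upward, and a rescaling by the median of ratios made them more even. It turned 957 higher and 454 lower at 12 h into 814 and 703, 2372 and 687 at 24 h into 1565 and 1430, and 3078 and 1120 at 36 h into 2139 and 2019. Quantile normalisation, another method, turned 2564 and 1774 at 72 h into 2424 and 2779, so that lower calls outnumbered higher ones. Atm was called lower there. With rescaling by the median of ratios, the median over all genes at 24 h moved from 0.13 to -0.01. The members called higher with that rescaling numbered 15, 25, 26 and 19 at the 4 times, with none lower.

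**Figure D2:**
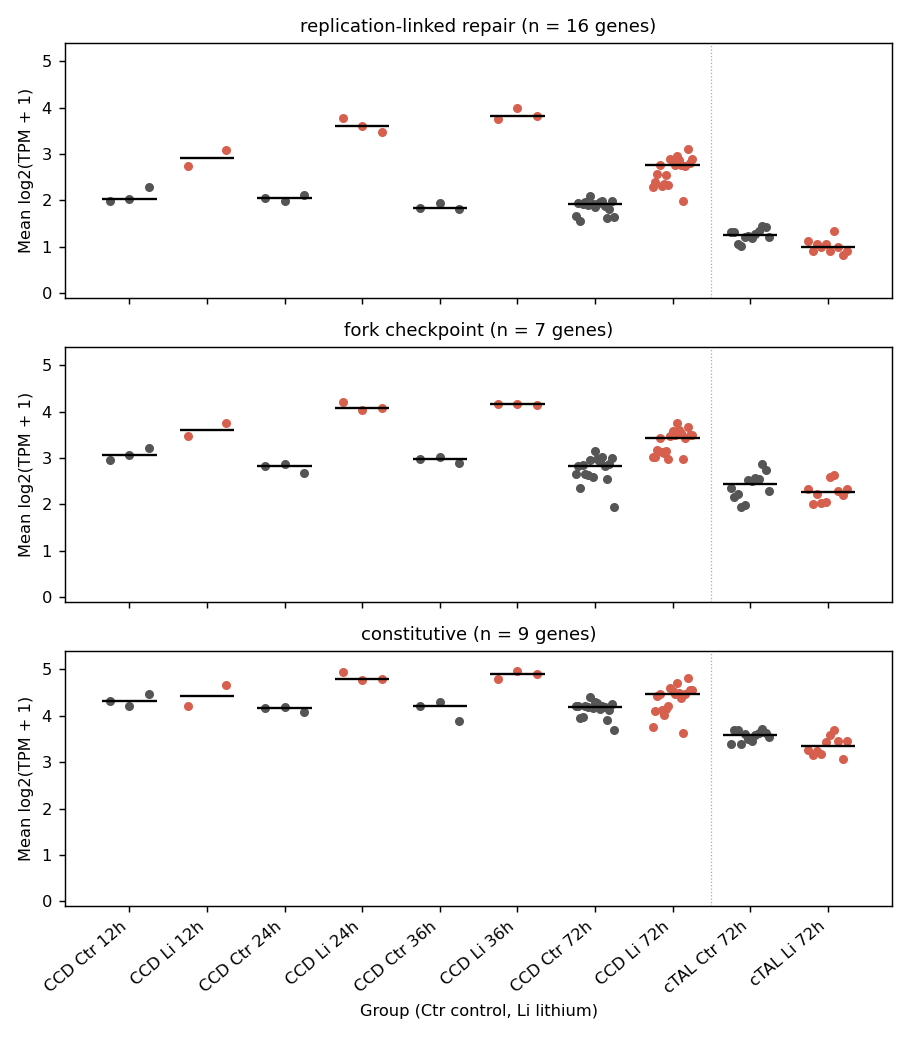
Mean log2(TPM + 1) over the members of each class, 1 point per library in order of library number (grey control, red lithium), with the group median as a bar. The replication-linked mean of lithium libraries at 36 h ran from 3.75 to 3.99, above the 1.81 to 1.94 of their controls, while the constitutive mean moved less and cTAL showed no such rise.

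The recombination genes include the BRCA1-BARD1 ubiquitin ligase that steers breaks into this pathway, the recombination mediator BRCA2, and the nuclease EXO1 that trims break ends. All 9 were called higher at 24 and 36 h, as were 8 of 8 tested at 72 h and 4 of 8 at 12 h. Brca1 had 2.7, 1.59 and 1.65 TPM in the control libraries at 36 h and 10.9, 15.82 and 15.7 TPM with lithium. The 2 groups were far apart, and the log2 difference was 2.35 (SE 0.20, limma adjusted p = 9.65e-08). At 72 h Brca1 ran from 1.18 through a median of 2.04 to 3.3 TPM in controls and from 0.01 through 5.64 to 8.17 TPM with lithium. Those ranges overlapped, with a lithium library at 0.01 TPM, and the difference was 0.83 (SE 0.19, limma adjusted p = 0.000595). Bard1 rose by 1.67, 2.36 and 1.19 from 24 to 72 h, whereas 0.59 at 12 h was not called. Brca2, at lower level, rose by 1.29, 1.05 and 0.35 at those times, the last of which missed the threshold without control libraries 13 to 17 (0.32, limma adjusted p = 0.0512).

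Rad54l, a motor protein that helps a broken strand invade its template, differed early. Its control libraries at 12 h had 5.08, 7 and 7.69 TPM and the 2 lithium libraries 19.84 and 26.4 TPM. Both lithium values lay far above the highest control value, and the difference of 1.67 (SE 0.24, limma adjusted p = 0.000204) was the largest of any member at that time. At 24 h the lithium libraries had 51.6, 36.86 and 29.95 TPM against 5.75, 6.54 and 6.26 TPM in controls. Rad51ap1, an accessory factor of strand exchange, rose by 1.12, 1.96, 2.79 and 1.21 at 12, 24, 36 and 72 h. Exo1 rose by 2.15 and 2.97 at 24 and 36 h, from early controls that lay at or under 1.66 TPM. Blm, the helicase that dissolves crossed strands, and Xrcc2, another recombination factor, were not called at 12 h and rose by 1.62 and 1.38 at 24 h. Rad54b was tested at 24 and 36 h, where it rose by 0.99 and 1.74. Its lithium libraries sufficed for it to pass the filter there.

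The Fanconi anaemia pathway unhooks crosslinks between DNA strands. FANCA and FANCB belong to its core ligase, and FANCD2 and FANCI form the clamp that the ligase marks with ubiquitin. Fancd2 showed the largest difference of any member and time. At 36 h its control libraries had 1.25, 3.4 and 2.6 TPM and its lithium libraries 23.04, 29.89 and 27.4 TPM, a log2 difference of 3.07 (SE 0.25, limma adjusted p = 4.92e-08). On the plain scale the means were 2.42 and 26.8 TPM. At 72 h Fancd2 had 0.58 to 4.43 TPM in controls, median 2.9, and 4.18 to 13.83 TPM with lithium, median 10.4, so that only the edges of the ranges touched. Fanci rose by 1.23, 2.11, 2.91 and 1.31 at the 4 times, and Fancb by 1.04, 1.73, 2.21 and 0.78. Fanca went another way. It was called at 12, 24 and 36 h with differences of 0.75, 0.57 and 0.87. The 24 h call was lost without any one of 5 libraries (control 2 or 3, or lithium 1, 2 or 3), with adjusted p from 0.0562 to 0.138. At 72 h its difference was -0.05 (limma adjusted p = 0.858), with medians of 12.1 TPM in both groups.

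Mismatch and base repair at the fork was represented by Msh6, which recognises mispaired bases, and by the glycosylases Ung and Neil3, which cut out damaged bases. Ung had 45.9, 49.04 and 41.24 TPM in controls at 36 h and 106.06, 111.06 and 92.01 TPM with lithium, a difference of 1.16 (SE 0.11, limma adjusted p = 4.44e-07). It was called at all 4 times. Neil3 lay at or under 1.27 TPM in early controls and was called at 36 h alone, with 0.02, 0 and 0.24 TPM in controls and 2.28, 3.78 and 2.77 TPM with lithium. At 36 h Neil3 passed the filter through the lithium libraries alone. Msh6 moved least of these 3, by 0.43 at 24 h, a call lost without any one of the 6 libraries (adjusted p 0.0748 to 0.0986), and by 0.82 at 36 h. At 72 h its 0.20 was not called. Without control library 3, Neil3 passed at 24 h too (0.96, limma adjusted p = 0.0204).

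Within the fork checkpoint class the fork protection pair TIMELESS and TIPIN stood beside the ATR kinase, its partner ATRIP, its activator TOPBP1, and CLSPN, which hands the signal to CHEK1. Timeless moved by as much as the recombination genes did. Its values at 24 h were 3.33, 3.57 and 3.65 TPM in controls and 36.45, 26.81 and 29.9 TPM with lithium, a difference of 2.82 (SE 0.18, limma adjusted p = 6.55e-09). Timeless was also called at the other times, by 1.59, 2.25 and 1.32. Its partner Tipin rose by 0.76, 0.88, 0.89 and 0.47, which is less, from a higher control level of 11.3 TPM at 24 h. Topbp1 rose by 1.83, 1.86 and 0.69 from 24 h on. Clspn was tested at 24 and 36 h, where control libraries lay at 0.06 to 0.3 TPM and lithium libraries at 2.08 to 3.4 TPM. It passed the filter there through the lithium libraries alone.

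The ATR kinase itself and CHEK1 moved less. Atr had 1.45, 1.78 and 1.11 TPM in controls and 3.86, 2.74 and 3.7 TPM with lithium at 24 h, a difference of 0.86 (SE 0.18, limma adjusted p = 0.00247), and was not called at 12 or 72 h. Without control libraries 9 to 12, or without lithium libraries 7 to 11, Atr passed at 72 h (0.47 and 0.46, limma adjusted p = 0.0257 and 0.015). Atrip was called at 36 h alone, by 0.40, and lost that call without control library 2 or any 1 lithium library (adjusted p 0.062 to 0.107). Without lithium libraries 7 to 11 it passed at 72 h (0.33, limma adjusted p = 0.0456). Chek1 peaked at 24 h, with 91.6, 109.45 and 97.16 TPM in controls against 214.46, 197.57 and 197.08 TPM with lithium. The 2 groups of 3 did not overlap and differed by 1.03 (SE 0.09, limma adjusted p = 4.38e-07). By 36 h the lithium libraries were at 130.01, 121.08 and 112.99 TPM and the difference was 0.38. At 72 h Chek1 differed by 0.43 (limma adjusted p = 0.0339), but its range within control CCD alone was 36.5 to 172 TPM. Leaving out control libraries 1 to 4, 5 to 8 or 13 to 17, or lithium libraries 7 to 11, 12 to 15 or 16 to 19, ended that call, with adjusted p from 0.0509 to 0.207.

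**Figure D3:**
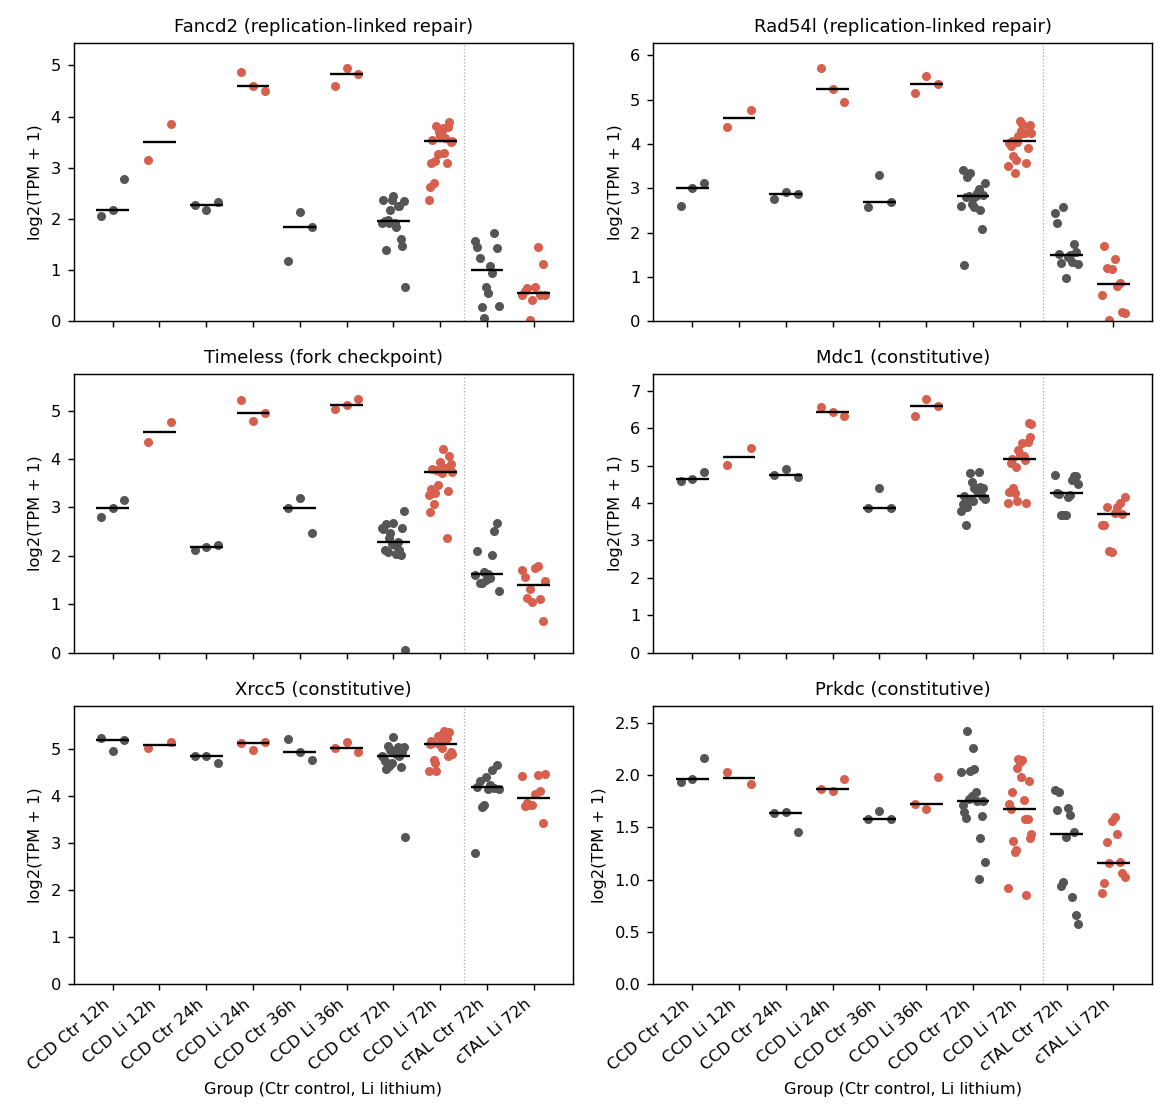
Level of 6 members in log2(TPM + 1), 1 point per library in order of library number (grey control, red lithium), with the group median as a bar. Fancd2, Rad54l, Timeless and Mdc1 sit higher on average in every lithium than control group of CCD, and Xrcc5 and Prkdc were not called at any time. All 6 overlap between the CCD groups at 72 h, and none of the 6 was called in cTAL.

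Promoter sequence was looked at because genes of the first 2 classes moved together. E2F factors switch on genes for DNA copying and bind sites with a run of T followed by G and C. RefSeq promoters of the GRCr8 assembly, 250 bases before to 50 after the gene start, were found for 25 of the 32 genes, and for Topbp1 the first of 3 entries was used. An E2F-type match (TTTGGCGC, TTTCCCGC, TTTCGCGC or TTTGCCGC on either strand) was present in 10 of 25, or 40%. The share was 5 of 7 in the fork checkpoint class, 4 of 12 in the replication-linked class and 1 of 6 in the constitutive class. Among 8523 promoters of genes tested in CCD at 72 h it was 4.25%, and among all 27457 promoters 2.25%. In the 250 bases before the start alone it was 6 of 25 members against 3.43% of the tested genes. Of 25 promoters from a list of proliferation genes 10 held a match as well. All 11 matches, chosen for print after the counts were seen, follow with their surroundings, 30 bases each, 5′ to 3′ in the direction of the gene, with the match in capitals.
Chek1, chr8:44629853-44629882, minus strand: agcaggttttgGCGGGAAAagctgtgcact
Clspn, chr5:144134647-144134676, plus strand: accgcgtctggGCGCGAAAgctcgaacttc
Timeless, chr7:1239439-1239468, plus strand: tctgccgagtgGCGGGAAAgtctgcgaccc
Tipin, chr8:73676049-73676078, plus strand: gcgtacccttgGCGCCAAActtcccagctt
Topbp1, chr8:112766736-112766765, plus strand: gcgtccgctcgTTTGGCGCgaaagtcggtt
Topbp1, chr8:112766740-112766769, plus strand: ccgctcgtttgGCGCGAAAgtcggttcctg
Bard1, chr9:80143942-80143971, minus strand: gtgccgctctgTTTCCCGCtcaggaagttt
Fancd2, chr4:148234706-148234735, plus strand: gcgtccgacaaGCGGGAAAgtcgaaaacga
Msh6, chr6:12333492-12333521, minus strand: ctcctcccggcTTTCCCGCcagcagtggcc
Ung, chr12:48154047-48154076, minus strand: gcgggaacagtTTTGCCGCgaaaagcccgc
Atm, chr8:62828850-62828879, minus strand: gatccgtgcacGCGGGAAAaggcgaagcga
The matches of Chek1, Tipin, Topbp1 and Ung lay within 44 bases before the start, that of Msh6 across it, and those of Timeless, Fancd2 and Clspn within 29 bases after it. The matches of Bard1 and Atm lay farther out, at 205 and 239 bases before the start. The 2 Topbp1 matches overlap each other, and no E2F-type match overlapped one of the other motifs searched. Those were the CHR element TTTGAA, in 4 of 25 members (16%, against 11.3% of the tested genes), the NF-Y box CCAAT in 11 of 25 (44%, against 38.5%), and the GC box GGGCGG in 18 of 25 (72%, against 64.5%). A match describes letters and not a bound factor. Brca1, Rad54l and Fanci, among the genes that rose most, had none of the E2F-type letters in this window.

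The Ku subunits Xrcc5 and Xrcc6 bind broken ends, and Prkdc encodes the kinase they recruit. Prkdc had 1.98, 2.16 and 1.99 TPM in controls and 2.31, 2.2 and 2.95 TPM with lithium at 36 h, a difference of 0.19 (SE 0.15, limma adjusted p = 0.341). The lowest lithium value lay just above the highest control value. At 72 h it had 1.01 to 4.36 TPM, median 2.37, in controls and 0.8 to 3.45 TPM, median 2.2, with lithium. The ranges lay on top of each other. Xrcc5 had 36.13, 29.86 and 26.29 TPM in controls and 31.72, 34.75 and 29.9 TPM with lithium at 36 h, with overlap. Neither gene was called at any time, but Xrcc5 lay close to the threshold. At 72 h it had 0.26 (limma adjusted p = 0.0825), which passed in a joint fit of all CCD groups (adjusted p = 0.0445) or without control libraries 9 to 12 (0.34, adjusted p = 0.039), and at 24 h it passed in a fit of its own groups (adjusted p = 0.0499). Xrcc6 was called at 24 h alone, with 31.09, 29.83 and 25.15 TPM in controls and 40.29, 40.51 and 38.58 TPM with lithium, a difference of 0.46. Without control library 3 its call was lost (0.37, limma adjusted p = 0.0547), and without control library 1 at 36 h it passed there (0.40, adjusted p = 0.0207).

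Of the nick repair genes, Xrcc1 was called at 12 and 24 h, by 0.56 and 0.49. Each call was lost without 1 library (at 12 h control 1 or lithium 2, adjusted p 0.0878 and 0.26, and at 24 h control 3 or lithium 1, 0.0513 and 0.068), and without control library 2 it passed at 36 h (0.38, limma adjusted p = 0.0442). Xrcc1 had medians of 104 TPM in control and 103 TPM in lithium CCD at 72 h. Parp1, the sensor of nicks that also marks damage with ADP-ribose chains, was called from 24 h on, by 0.73, 0.87 and 0.34. At 24 h its controls had 31.22, 28.91 and 34.15 TPM and its lithium libraries 59.28, 48.99 and 50.19 TPM. The 72 h call of Parp1 was lost without lithium libraries 16 to 19 (0.22, limma adjusted p = 0.07).

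The 4 damage sensing genes did not move as 1 group. Mdc1, the adaptor that reads phosphorylated histone H2AX next to a break, had 13.6, 20.08 and 13.49 TPM in controls and 78.99, 108.1 and 95.38 TPM with lithium at 36 h. Its difference of 2.52 (SE 0.16, limma adjusted p = 2.69e-09) lay in the range of the recombination genes. Its call at 12 h (0.55, limma adjusted p = 0.0498) was at the threshold and was lost without lithium library 2 (0.32, adjusted p = 0.375) and without any 1 control library of that time. Chek2, the kinase downstream of ATM, had 9.07, 9.98 and 7.93 TPM against 27.14, 28.16 and 29.39 TPM, a difference of 1.55 (SE 0.18, limma adjusted p = 3.54e-06). Atm itself rose by 0.87 and 0.79 at 24 and 36 h, and its differences at 12 and 72 h were -0.12 and -0.21 and not called. Its calls were lost without lithium library 1 at 24 h (adjusted p = 0.0764) and without control library 3 or lithium library 2 at 36 h (0.103 and 0.0674). On quantile-normalised values Atm was called lower at 72 h (-0.33, limma adjusted p = 0.0114). Tp53bp1, which steers breaks toward end joining, was not called at any time and had 16.87, 18.96 and 12.63 TPM in controls and 17.39, 21.4 and 19.16 TPM with lithium at 36 h. Without Mdc1 and Chek2, the constitutive genes called at 72 h came down to Parp1.

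Some members lie beside another gene on the chromosome, within 1000 bases in the RefSeq table of GRCr8, and the deposited libraries keep no strand, so reads from overlapping neighbours cannot be told apart. These neighbours were looked up after the values of the members were seen. Prkdc is next to Mcm4, a subunit of the helicase that opens DNA for copying. Mcm4 went from 15.8 ± 2.82 TPM (SD, n = 3) in controls to 88.3 ± 9.37 TPM (SD, n = 3) with lithium at 36 h, a difference of 2.42 (SE 0.16, limma adjusted p = 7.35e-09), while Prkdc differed by 0.19. Emc3 beside Fancd2, Lrrc41 beside Rad54l and Nbr1 beside Brca1 differed by 0.02, -0.04 and -0.14 at 36 h and were not called, though Nbr1 fell by 0.38 at 72 h (limma adjusted p = 0.0373). Other neighbours of members that rose were called higher at 36 h, among them Cdv3 beside Topbp1 (0.79), Mospd2 beside Fancb (0.54), Polg beside Fanci (0.44) and Fsbp beside Rad54b (mean 0.887 TPM in controls and 2.95 TPM with lithium). Mdc1 and its neighbour Nrm both rose, Nrm by 2.07. Tubgcp4, beside Tp53bp1, rose by 1.00 where Tp53bp1 did not pass, and Npat, beside Atm, rose by 0.77 where Atm rose by 0.79. Pinlyp, beside Xrcc1, rose by 2.25 at 36 h and by 2.60 at 72 h, where Xrcc1 was not called.

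**Figure D4:**
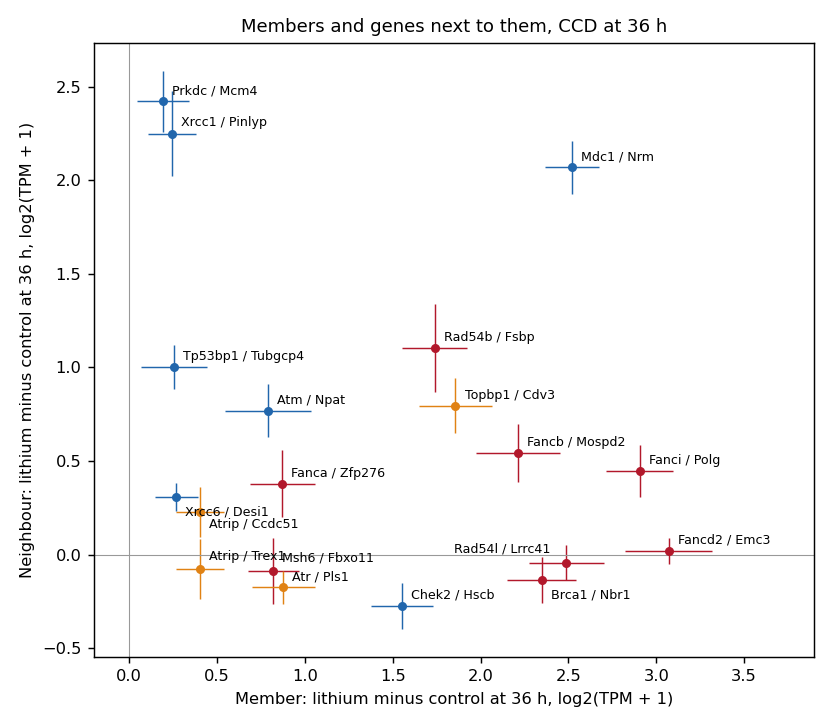
Lithium minus control at 36 h in CCD for a member (horizontal) and a gene next to it (vertical), both in log2(TPM + 1) with standard errors, coloured by the member's class (red replication-linked, orange fork checkpoint, blue constitutive). Prkdc with Mcm4 and Xrcc1 with Pinlyp sit at the top left. Fancd2, Rad54l and Brca1 lie at the lower right beside flat neighbours, and Mdc1 at the top right with Nrm.

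Over time the lithium difference was largest at 36 h for 13 of the 16 replication-linked genes and at 24 h for the other 3, namely Brca1, Brca2 and Ung. The fork checkpoint genes had 5 at 36 h and 2 at 24 h, namely Chek1 and Timeless. The constitutive genes had 4 at 36 h, 4 at 24 h and 1 at 12 h. A moderated F test of whether the difference itself changed between 12, 24, 36 and 72 h called 18 of 32 members, where 8.43% of 14105 genes were called. These were 12 of 16 replication-linked genes, 3 of 7 fork checkpoint genes and 3 of 9 constitutive genes, namely Atm, Chek2 and Mdc1. Clspn (adjusted p = 0.000361, limma F test), Ung (0.00138) and Fancd2 (0.00299) had the smallest p. Clspn was under 1 TPM in the control libraries of 24 and 36 h. A gene entered this test with at least 1 TPM in 2 CCD libraries, the size of the smallest group. Clspn, Neil3 and Rad54b averaged 0.31, 0.39 and 0.18 TPM in control CCD at 72 h. The lithium libraries of 36 h alone sufficed for each of them to enter, and all are counted. With a pseudocount of 0.1 in place of 1 the count was 5. Means over library sets leave 1 value per early group. A fit on them takes its spread from the 72 h sets alone, so it cannot decide the change over time. Every lithium time was compared with its own controls. Before 72 h each group was 1 set, however, so lithium and set cannot be told apart there. The mean log2 level of the replication-linked class had medians of 2.02, 2.05, 1.84 and 1.91 in control CCD at 12, 24, 36 and 72 h.

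The call at 12 h rested on few libraries. Groups of 3 and 2 libraries did not overlap for 18 of the 29 tested members, all higher with lithium, where 23.2% of all genes were higher and 11.3% lower without overlap. In place of 13 genes, 5 were called without lithium library 2 and 15 without lithium library 1, the library with 12 short RNA genes, while 4.47% and 8.2% of all genes were called higher. The median of the replication-linked genes was 0.47 and 1.13 in those fits. The calls lost without lithium library 2 were those of Brca1, Exo1, Fanca, Fancb, Fancd2, Ung, Xrcc1 and Mdc1. Some of these also failed without a control library of that time, namely Exo1 (control 1 or 3, limma adjusted p = 0.149 and 0.0543), Fanca (control 1, 0.0816), Fancb (control 2, 0.0587), Xrcc1 (control 1, 0.0878) and Mdc1 (any 1 of the 3). A fit of the 12 h groups alone called 2, and 2.1% of all genes. At 24 h 30 of 32 members had higher values in every lithium than in every control library (33.9% of all genes), and at 36 h 28 of 32 (34.6% of all genes). At 72 h no member had groups without overlap, where 1.71% of all genes had.

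At 72 h the library sets give a second view. The means of the 4 lithium sets all exceeded those of the 4 control sets for 14 of 16 replication-linked genes, 3 of 7 fork checkpoint genes and 2 of 9 constitutive genes, where 14.2% of all genes did. No member had all lithium sets below, where 6.23% of all genes had. Rad54l had set means of 5.51 to 7.25 TPM in controls and 12.9 to 18.2 TPM with lithium. Timeless had 3.60 to 4.62 TPM and 8.92 to 12.7 TPM. The 2 replication-linked exceptions were Fanca, with 9.29 to 14.5 TPM in control and 9.21 to 14.5 TPM in lithium sets, and Msh6. The 2 constitutive genes were Chek2 and Mdc1, and Mdc1 ran from 23.4 to 59.8 TPM over the lithium sets. Treating each set mean as 1 replicate called 15 of 29 members higher, against 19 with libraries as replicates, and 10.8% of all genes in place of 22%. Without lithium libraries 16 to 19 the count was 17, with 20.2% of all genes called higher.

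**Figure D5:**
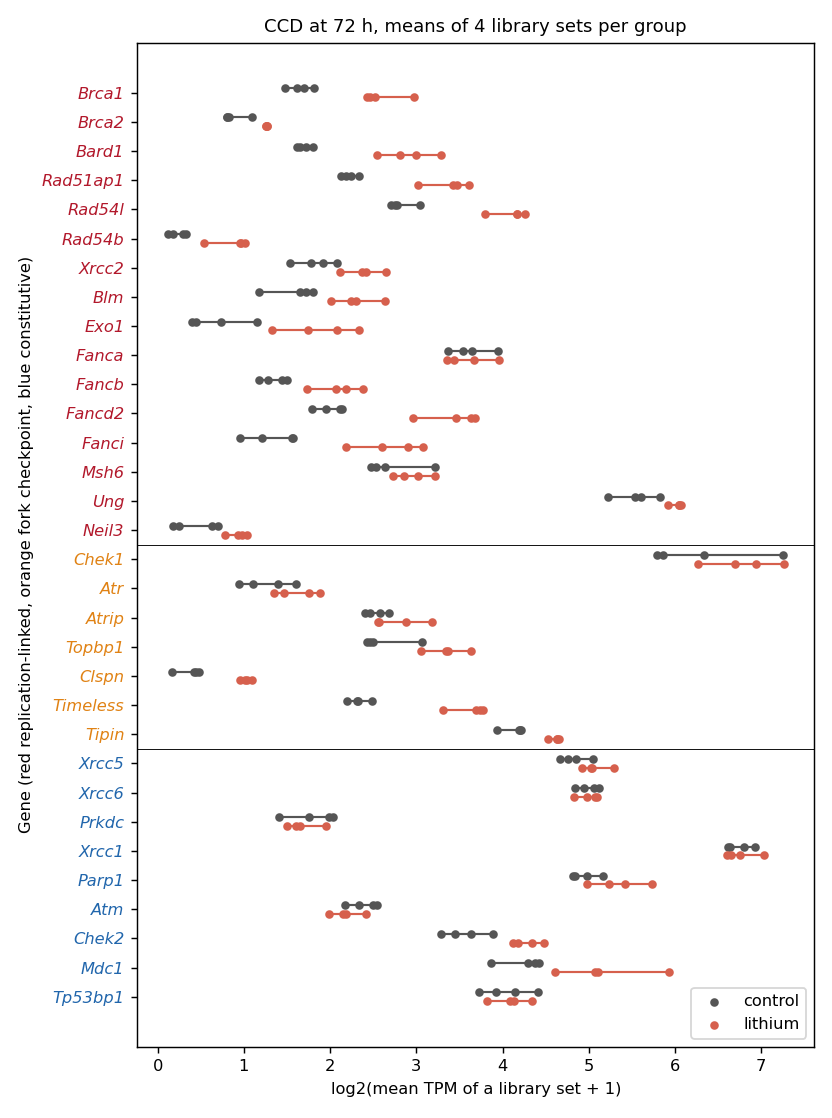
Mean level of each member in the 4 library sets of control (grey) and of lithium (red) CCD at 72 h, as log2(mean TPM + 1), with a line from the lowest to the highest set. The 2 lines are apart for 14 of the 16 replication-linked genes at the top and overlap for 7 of the 9 constitutive genes at the bottom.

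In cTAL limma called none of the 20 tested members between lithium and control at 72 h in either direction, where 0.701% of 11702 genes were called, 0.111% higher and 0.59% lower (13 and 69 genes, or 21 and 54 after rescaling by the median of ratios, which again called no member). At an unadjusted p under 0.05 limma gave 0 members higher and 5 of 20 lower, where 2.59% of all genes were higher and 9.94% lower (303 and 1163 genes). Clspn and 11 of the 16 replication-linked genes were too low to be tested there, and 9 of the 16 replication-linked genes had a mean under 1 TPM in control cTAL. Rad54l had 0.96 to 4.98 TPM, median 1.83, in controls and 0.02 to 2.22 TPM, median 0.775, with lithium, a difference of -0.84 (SE 0.22, limma adjusted p = 0.0882). Mdc1 had 11.71 to 25.7 TPM and 5.49 to 16.94 TPM, a difference of -0.70 (SE 0.19, limma adjusted p = 0.0905). Both pairs of ranges overlapped (0.0171% of all genes had lithium libraries all below control libraries). Of the 32 members these 2 alone had all lithium set means below the control set means (1.87% of all genes), and none had them all above (0.444%). Leaving out 1 control set of 3 libraries (6 to 8) brought Rad54l and Xrcc1 past the threshold, lower with lithium, and leaving out lithium libraries 6 and 7 did so for Xrcc1 (-0.40, limma adjusted p = 0.0361).

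The lithium difference in CCD minus that in cTAL was called for 16 of 31 members, all higher in CCD, where 11.8% of 13083 genes were called higher, 3.44% lower and 15.3% in either direction (1550 higher and 450 lower, or 1109 and 857 after rescaling by the median of ratios, which left 15 members higher). Rad54l had the largest, at 2.14 (SE 0.25, limma adjusted p = 8.54e-10), from 1.29 in CCD and -0.84 in cTAL. Bard1, Timeless, Fancd2, Rad51ap1, Fanci and Mdc1 followed with 1.95, 1.76, 1.73, 1.60, 1.58 and 1.52. By class they were 10 of 15 replication-linked genes, 4 of 7 fork checkpoint genes, and Chek2 and Mdc1 of 9 constitutive genes. Clspn and Neil3 are among them, though neither passed the filter within CCD or within cTAL at 72 h. Set means of Clspn were at most 0.395 TPM in control CCD and 0.245 TPM in cTAL, and 0.938 to 1.14 TPM in lithium CCD. Those of Neil3 were at most 0.628 and 0.135 TPM, and 0.718 to 1.055 TPM in lithium CCD. Both were thus highest in lithium CCD, and Clspn entered this test mainly through it. Without the 72 h libraries that held many short RNA genes 9 were called, and with set means as replicates also 9. The same 9 genes were called in both: Bard1, Clspn, Exo1, Fancd2, Fanci, Mdc1, Rad51ap1, Rad54l and Timeless. Brca1, Fancb, Ung, Neil3, Atrip, Tipin and Chek2 passed in neither. With the sets that match between CCD and cTAL as a block, a fit chosen after seeing the data, 20 were called, with 15.3% of all genes higher, and the added genes were Xrcc2, Topbp1, Xrcc1 and Parp1.

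Unexposed segments differed as well. In controls at 72 h 20 of 27 tested members were higher in CCD than in cTAL, where 49.8% of all genes were, and 1 was lower, where 18.6% were (68.4% in either direction). The median difference was 0.76 for replication-linked and 0.51 for constitutive genes, against 0.28 for all genes, and rescaling by the median of ratios, which turned 5937 higher and 2216 lower calls over all genes into 3614 and 3492, left 13 members higher. Fanca stood apart, with 2.62 to 16.73 TPM, median 12.1, in control CCD and 0.02 to 1.21 TPM, median 0.255, in control cTAL. The ranges did not overlap (9.06% of genes tested were likewise higher) and the difference was 3.15 (SE 0.18, limma adjusted p = 4.92e-24). Chek2 was next, at 1.56 (SE 0.17, limma adjusted p = 8.29e-12), with medians of 10.6 and 3.05 TPM. Ung was the gene higher in cTAL, with 34.94 to 61.63 TPM in CCD and 79.71 to 112.72 TPM in cTAL, also without overlap (5.49% of genes tested were likewise lower), and a difference of -1.02 (SE 0.08, limma adjusted p = 9.57e-18). Summed immune markers differed between the segments in the other direction, as given above, and their part in these differences was not tested.

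Of 117 other repair genes, 31 were called higher and 8 lower of 112 tested in CCD at 72 h, where 22% of all genes were higher and 15.2% lower, and 60 higher and 2 lower of 113 at 36 h, where 25.5% were higher and 9.28% lower. Ube2t, which marks FANCD2, rose by 1.41 (SE 0.13, limma adjusted p = 1.1e-11) at 72 h and by 3.38 at 36 h. Of 13 other Fanconi anaemia genes 3 rose and 2 fell at 72 h, among the latter Fancl, the ligase subunit, which fell by 0.26. Of 10 translesion genes 3 rose, among them Rad18, which starts bypass of damaged bases, by 1.34. The ligase Lig1, which joins newly copied fragments, rose by 0.83. Of 7 other end joining genes 1 was called at 72 h (Nhej1, by 0.31). Of 8 at 36 h 4 rose and 1 fell, among them Polq, a polymerase of an alternative end joining route, which rose by 1.93, and Poll, which fell by 0.41. At 72 h, of 16 nucleotide excision genes 2 rose and 2 fell, among them Ercc5, which fell by 0.81. Among signalling genes H2afx, the histone that marks breaks, rose by 0.82. In cTAL the 1 gene called among the 107 tested was Ube2t, at -1.26 (SE 0.28, limma adjusted p = 0.0277).

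Genes of cell division moved with the replication-linked genes. Of 33 proliferation genes 17 were called higher at 12 h and all 33 at 24, 36 and 72 h, where 7.96%, 19.9%, 25.5% and 22% of all genes were, with medians of 0.65, 1.90, 2.88 and 1.53. Their summed level per library ran from 583 to 888 TPM in control CCD at 72 h and from 1514 to 2206 TPM with lithium, and reached 3559 to 3763 TPM in lithium CCD at 36 h. Mki67, found in dividing cells, had 1.18 to 3.17 TPM in controls and 22.08 to 23.61 TPM with lithium at 36 h, but 2.9 to 6.33 TPM and 2.77 to 7.21 TPM at 12 h, where Rad54l and Timeless already differed. Pcna, the sliding clamp of DNA copying, had 134.14 to 151.47 TPM and 240.94 to 299.71 TPM at 12 h. In cTAL 8 of 30 tested proliferation genes were called lower with lithium and none higher, where 0.59% of all genes were lower, and their summed level had medians of 388 TPM in control and 252 TPM in lithium libraries. The part of a changed number of dividing cells in the differences of the 32 genes was not tested.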

How the data were processed

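The deposited table holds TPM for 32754 genes in 75 libraries, 53 of CCD and 22 of cTAL, with 2 decimals; no read counts were used here, so the depth of each library is unknown. Per the submitters' processing notes the authors used STAR 2.5.2b, RSEM 1.2.31 and Rnor_6.0. Per the labels, complementary DNA was made with an unstranded SMARTer kit in 15 cycles, so a gene and one overlapping it on the other strand share reads. No 2 libraries held identical values.

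Genes with at least 1 TPM in as many libraries as the smallest group were tested on log2(TPM + 1) with limma 3.58.1 in R 4.3.3 (trended variance, two-sided, Benjamini-Hochberg adjustment over all genes tested, threshold 0.05). The 72 h comparisons used their own 2 groups, the earlier ones 1 joint fit of 6 CCD groups, the segment differences 4 groups, and the change over time an F test in 8 CCD groups. Every adjusted p comes from limma. The code was tested on simulated data. Tables and figures were made with Python 3.11.15, pandas 2.3.3 and matplotlib 3.10.9.

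The members and lists were chosen with earlier results of these data known. The text names all 32 members, of 117 matched other repair genes (120 listed; Dna2, Hrob and Paxx did not match) those called, at most 4 per pathway by smallest p, of 33 proliferation genes Mki67 and Pcna, and the top marker of a cell type list. Neighbouring genes and the sequences printed were chosen after their values were seen, as were the 5 genes that define library sets (Pfdn6, Repin1, Mrps10, H3f3c and Slc39a1). Promoters are from RefSeq, GRCr8. Alternatives changed the pseudocount, filter, scaling, fit, replicate unit and libraries used; leaving out the libraries with many short RNA genes, and a block of library sets that match between segments, were added after seeing the data. Results of some other repair genes are not reported here.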

Additional observations from a re-analysis of the deposited data

Results flagged for a closer look

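The lithium difference at 72 h was larger in CCD than in cTAL for 16 members, by limma's interaction term, in log2(TPM + 1). Among recombination genes the differences between segments were 0.999117 for Brca1, 1.95157 for Bard1, 1.59514 for Rad51ap1, 2.13642 for Rad54l and 1.26013 for Exo1. Among the Fanconi and base repair genes they were 1.00799 for Fancb, 1.72962 for Fancd2, 1.57527 for Fanci, 0.43984 for Ung and 0.593055 for Neil3. Fork checkpoint genes had 0.583828 for Atrip, 0.789955 for Clspn, 1.75619 for Timeless and 0.54059 for Tipin. Of the constitutive genes Chek2 had 1.03156 and Mdc1 1.52428.

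The lithium difference in CCD changed with time for 18 members by limma's F test. The adjusted p was 0.0127 for Brca1, 0.0429 for Brca2, 0.0331 for Bard1, 0.0329 for Rad51ap1, 0.0119 for Rad54l, 0.00575 for Rad54b and 0.00936 for Exo1. It was 0.0281 for Fancb, 0.00299 for Fancd2, 0.0175 for Fanci, 0.00138 for Ung and 0.0126 for Neil3. Fork checkpoint genes had 0.0461 for Topbp1, 0.000361 for Clspn and 0.0366 for Timeless, and constitutive genes 0.0254 for Atm, 0.0109 for Chek2 and 0.0135 for Mdc1.

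In the 10 lithium cTAL libraries, the highest library stood apart from the others for Rad54b, at 0.08 TPM, and for Neil3, at 0.27 TPM. These were 2 of 32 such tests, and both levels are far under 1 TPM. Both genes had a lowest set mean of 0 TPM in this group, and how often chance flags values so close to 0 was not tested.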

How the results depend on the processing

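With set means as replicates, the members differing between segments in their lithium effect numbered 9 in place of 16. Set means leave 1 value per early group, so the spread then comes from the 72 h sets alone. Such fits cannot decide the calls at 12, 24 and 36 h or the 18 calls over time, which rest on libraries of 1 set per early group. A fit of the 12 h groups alone called 2. Leaving out 1 library in turn gave 5 (without lithium library 2) to 15 at 12 h. In cTAL 2 members were called lower without control libraries 6 to 8 and 1 without lithium libraries 6 and 7, against 0. Without the 72 h libraries with many short RNA genes, an alternative chosen after seeing the data, 9 segment differences were called. Quantile normalisation called 1 member, Atm, lower at 72 h, the median-of-ratios scaling left 13 in place of 20 members higher in control CCD, and a pseudocount of 0.1 left 5 changes over time. The E2F-type motif was in 6 in place of 10 promoters over the 250 bases before the start. No result changed direction past the threshold, and apart from the construction of these alternatives the cause was not tested.

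Library numbers are shared between groups, but same-numbered control and lithium libraries of the same segment and time did not deviate together. Correlations ran from -0.191 to 0.374 over the 5 comparisons, the highest in cTAL, and 1 library was best matched by its own number in each. These libraries were therefore not treated as pairs. Pairs of a CCD and a cTAL library were not examined in this way. With a replicate block 19, 13, 27 and 27 members were called higher in CCD at 72, 12, 24 and 36 h, and 0 in cTAL. The table gives no depth, so no limit of detection can be set for genes near 0 TPM.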
